A study of Mus musculus with 12 samples.

Results

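Lysosome and autophagy genes were followed in RNAseq data of immortalized murine brown adipocytes. The group held 32 genes, taken by their symbols from the 48321 genes listed. It comprised proteins of the lysosomal membrane, hydrolases and their cofactors, the transcription factors Tfeb and Tfe3, and components of the autophagy machinery. All cells came from brown preadipocytes of the interscapular fat of a WT C57BL/6J newborn mouse, were immortalized with SV40 large T antigen and were selected with puromycin after lentiviral transduction. They carried either the empty pLEX vector (vector) or a Flag-tagged, truncated Sema4B (tSema4B) that mimics the form of Sema4B released by the protease ADAM17, with 1 stable line per construct. Both lines were differentiated for 8 days, first with 3-isobutyl methylxanthine, rosiglitazone, dexamethasone, insulin and triiodothyronine and later with insulin and triiodothyronine alone, and were then kept for 6 h in serum-free medium with albumin, either unstimulated or with 2 μM norepinephrine (NE), the sympathetic transmitter that activates brown fat. This gave 4 groups of 3 libraries, which the labels call technical replicates. Whether separate cultures were used for them is not stated, so p-values measure the spread between these libraries, and a difference between vector and tSema4B is a difference between these lines.

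Lysosomes are acidic organelles in which hydrolases break down proteins, glycogen, lipids and glycans that arrive by endocytosis or by autophagy. In autophagy, a membrane encloses cytoplasm, lipid droplets or mitochondria and then fuses with the lysosome. The transcription factors TFEB and TFE3 enter the nucleus when nutrients are scarce or lysosomes are stressed and bind an E-box-like element in the promoters of many lysosomal genes. In brown fat, autophagy removes mitochondria when thermogenic activity is withdrawn, and lysosomal acid lipase contributes to the breakdown of lipid.

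The promoters of the members were searched for the core of that element because it is the sequence feature that lysosomal genes are best known to share. RefSeq promoter windows (GRCm38.p6, 250 bases before to 50 after a gene start) were matched for 29 of the 32 members, in 34 windows, and Ctsb, Map1lc3a and Becn1 had no entry. The motif TCACGTGA, a palindrome that reads the same on both strands, was present in 4 of the 29 genes and in 11.8% of the members' windows, against 0.974% of all 32851 windows of this length. The sites are shown 5′ to 3′ on the strand of the gene, with the motif in capitals.
Ctsa, chr2:164833749-164833778 (+): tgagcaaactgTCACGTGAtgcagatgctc
Ctsa, chr2:164833766-164833795 (+): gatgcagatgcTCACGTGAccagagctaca
Ctsd, chr7:142387908-142387937 (-): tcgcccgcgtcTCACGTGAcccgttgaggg
Mcoln1, chr8:3500462-3500491 (+): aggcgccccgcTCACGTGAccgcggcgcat
Gla, chrX:134601215-134601244 (-): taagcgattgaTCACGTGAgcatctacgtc
Gla, chrX:134601182-134601211 (-): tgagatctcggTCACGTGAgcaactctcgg

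The shorter E-box CACGTG, which lies within TCACGTGA and is also a palindrome, was found in 10 of the 29 genes, namely Atg5, Atg7, Ctsa, Ctsd, Ctsl, Gaa, Gla, Glb1, Lamp1 and Mcoln1. This was 29.4% of the members' windows, against 7.15% of all windows. Lamp1 held 4 copies directly before its start, and Gaa, Ctsl, Atg5, Atg7 and Glb1 held 1 each. These are the genes with CACGTG and without the longer motif, shown with CACGTG in capitals.
Lamp1, chr8:13159089-13159160 (+): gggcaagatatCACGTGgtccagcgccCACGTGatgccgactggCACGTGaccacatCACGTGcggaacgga
Gaa, chr11:119267812-119267839 (+): ttctgtgcgatCACGTGtttgactctga
Ctsl, chr13:64370740-64370767 (-): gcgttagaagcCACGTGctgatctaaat
Atg5, chr10:44268314-44268341 (+): ggagcgcttgcCACGTGgtcttggtgac
Atg7, chr6:114670953-114670980 (+): atattggtggtCACGTGtgcagtaagtg
Glb1, chr9:114401019-114401046 (+): tgcttctgagtCACGTGgcctacagagg
The full cAMP response element TGACGTCA, likewise a palindrome, was found in Atg5 and Gusb only (5.88% of the members' windows against 1.79% of all). A match is a description of these letters in these windows, and binding was not measured.

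All values are normalized counts, that is reads per gene divided by a DESeq2 size factor for the library. A gene was tested when 3 or more of the 12 libraries reached 10 normalized counts (11998 genes), with limma on log2(normalized count + 1). It was said to have passed at an adjusted p of 0.05 or less (two-sided, Benjamini-Hochberg over all genes tested), and members whose log2 fold change (log2FC) was also 1 or more in size were counted beside this. Of the 32 members, 31 were tested. The cysteine protease Ctss had 0 reads in each of the 12 libraries, where 3 reads would be 1.78 to 4.64 normalized counts. A permutation test of 3 libraries against 3 cannot give an exact p below 0.1, so adjusted p-values rest on the spread that limma pools over genes.

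Reads counted on genes lay between 2000780 and 5409583 per library, and in each condition the vector libraries were deeper (2841941 to 3682634 unstimulated, 4739777 to 5409583 with NE) than the tSema4B libraries (2000780 to 2541747 and 2307190 to 3144946). Sema4b itself took 3.58% to 4.02% of the reads in unstimulated vector and 8.53% to 10.2% in unstimulated tSema4B libraries, and 2.04% to 2.57% and 7.01% to 8.88% with NE. Markers of the cells differed between the lines as well. The summed normalized count of 8 adipocyte markers was 33269 to 37077 in unstimulated vector and 5434 to 7998 in unstimulated tSema4B libraries, and 46690 to 59290 and 9554 to 10928 with NE, with all 8 lower in tSema4B in both conditions. Of 8 brown adipocyte markers, 6 were tested, and Ucp1, Cidea, Elovl3 and Ebf2 were lower in tSema4B in both conditions, while Ppargc1a and Prdm16 did not pass in either. Ucp1 was at 9.25 to 15.2 in unstimulated vector and 0 in unstimulated tSema4B libraries, and at 268 to 293 and 60.8 to 66.5 with NE. Ppargc1a was at 13.5 to 26.1 and 9.53 to 46.4 unstimulated, and at 10.7 to 18.3 and 11.9 to 29.0 with NE. The sum of 12 preadipocyte and fibroblast markers was 16840 to 17485 and 31561 to 35956 unstimulated, and 13945 to 16012 and 29622 to 31466 with NE, and 8 of the 11 tested were higher in tSema4B unstimulated and 9 of 11 with NE. Of 12 macrophage markers, which matter here because macrophages are rich in lysosomes, 9 had no read in any library, among them Adgre1, Ptprc and C1qa, and the sum was 0 to 3.58 in unstimulated and 9.65 to 19.8 in NE libraries, most of it Csf1r. The summed level of 6 endothelial markers was at most 21.9. Depth, Sema4b reads and adipocyte and fibroblast markers thus moved with the comparison of the lines. In vector cells depth, the Sema4b share and the adipocyte and fibroblast sums also differed between NE and unstimulated libraries, with no overlap. In tSema4B cells the adipocyte and fibroblast sums did so, while depth and the Sema4b share overlapped. Single markers did not all move with these sums. With NE in vector cells Fabp4 passed upward (means 24034 and 40898), and Plin1 and Pparg passed downward. In tSema4B cells Cidec, Lpl and Fabp4 passed upward and 0 downward. Of the fibroblast markers, Ly6a passed upward and Pdgfrb, Dlk1, Cd34 and Col1a1 downward with NE in both lines. The part of these differences in the results below was not tested.

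The levels of the members spanned a wide range. Per kilobase of exon, on a mean over the 12 libraries, Psap was highest (2207 normalized counts), followed by Lamp1 (1072), Ctsb (794), Sqstm1 (717), Ctsl (556), Map1lc3a (520.0), Lamp2 (517), Cd63 (497) and Grn (419.6). The lowest of those with reads were Ulk1 (11.0), Atg7 (9.41) and Tfeb (2.90). Membrane proteins, cathepsins and cofactors of the lysosome thus held most of the top places. Tfeb rested on 5 to 29 reads per library, so that only a large change of it could have been seen.

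**Figure D1:**
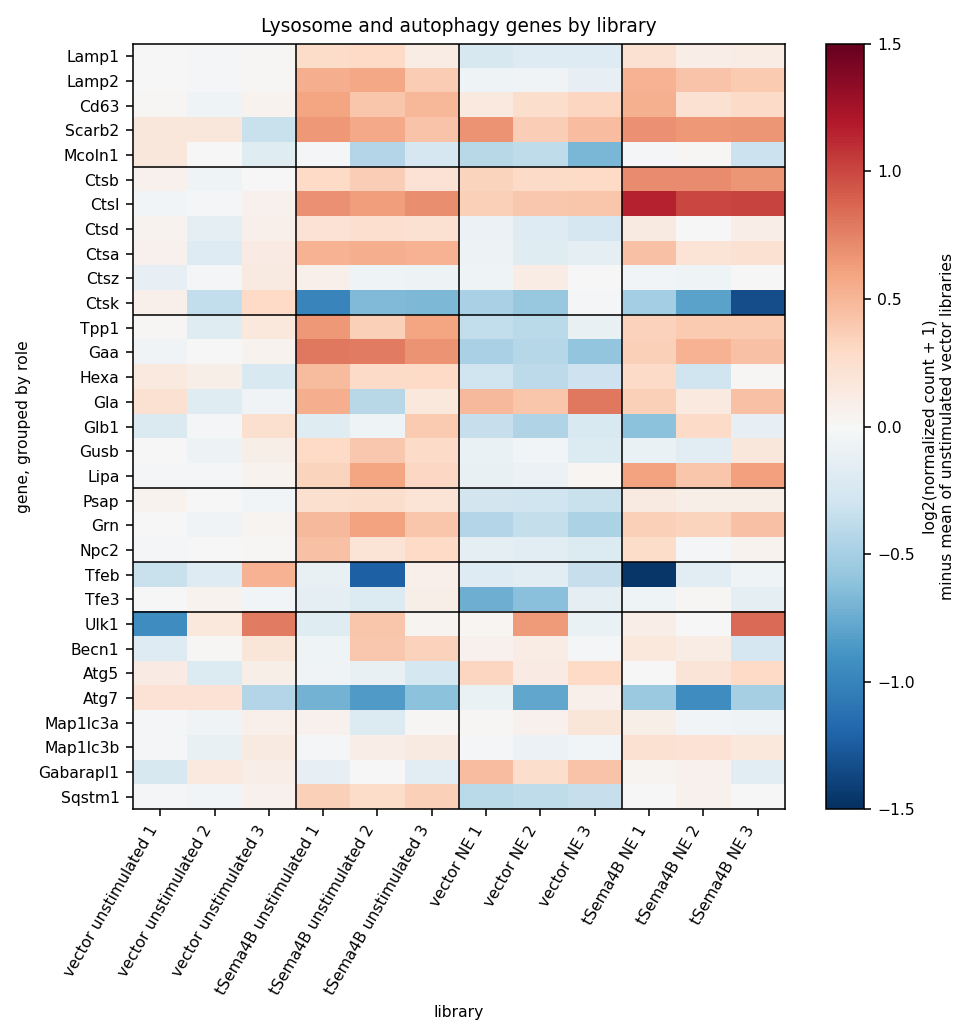
Level of the 31 tested lysosome and autophagy genes in each of the 12 libraries, as log2(normalized count + 1) minus the mean of the 3 unstimulated vector libraries (red is higher, blue is lower). Rows are grouped by role. Lamp2, Ctsl, Ctsa and Tpp1 are red in the 6 tSema4B libraries, and Ctsk and Atg7, which passed in no comparison, are blue in them. In the 3 NE-treated vector libraries Ctsl is also above that mean, Ctsk is also below it and Atg7 is mixed.

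The question of the first comparison was how the tSema4B line differed from the vector line in unstimulated cells. Of the 31 members tested, 14 were higher and 0 lower in tSema4B, where 5.64% of all genes tested were higher and 7.39% were lower. The higher genes were the membrane proteins Lamp1, Lamp2, Cd63 and Scarb2, the proteases Ctsa, Ctsb, Ctsl and Tpp1, and the glycogen- and lipid-degrading enzymes Gaa and Lipa. The others were the cofactors and transfer proteins Psap, Grn and Npc2, and the autophagy receptor Sqstm1. Changes were moderate, with log2FC values of 0.23 to 0.75 among the 14. The median log2FC of the members was 0.23, and that of all genes was -0.0025. A count of 22 members lay above 0 and 9 below. None of the 31 reached a log2FC of 1 with the adjusted p, as 3.82% of all genes did in either direction. Here and below, the shares of all genes tested were not matched to the members' levels, and small changes pass more readily in abundant genes.

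In NE-treated cells, 14 members were again higher in tSema4B, and 1, Gabarapl1, was lower. Of all genes tested, 9.79% were higher and 11.2% were lower, and 5.76% also passed a log2FC of 1, which 0 members did. The median log2FC of the members was 0.26, that of all genes -0.010. The unstimulated and NE comparisons share no library. They contrast the same lines, however, and take the spread of each gene from 1 model of all 12 libraries, so they are not independent. Of the members higher in tSema4B, 12 passed in both, which is 85.7% of either list: Ctsa, Ctsb, Ctsl, Gaa, Grn, Lamp1, Lamp2, Lipa, Npc2, Psap, Sqstm1 and Tpp1. Of all genes tested, 451 (3.76%) were higher in both, which is 66.6% of those higher unstimulated and 38.4% of those higher with NE, and the difference in overlap was not tested. Cd63 and Scarb2 passed in unstimulated cells alone, and Tfe3 and Map1lc3b in NE-treated cells alone. For none of the members did the interaction of tSema4B and NE pass (0 of 31 in limma, 0 in edgeR and 0 in DESeq2, against 0.025% of all genes), and 6 had an unadjusted p below 0.05, as did 10.2% of all genes.

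The summed normalized count of the 32 members was 33654, 32617 and 33978 in the unstimulated vector libraries and 43181, 42956 and 41194 in the unstimulated tSema4B libraries. With NE it was 32247, 32142 and 32217 in vector and 44222, 41733 and 41821 in tSema4B. All tSema4B libraries thus lay above all vector libraries, and the ratio of the means was 1.27 unstimulated and 1.32 with NE. The sum is not scaled to gene length and weighs abundant members most, such as Psap and Lamp2 (means of 5971 and 4178 in unstimulated vector). Both passed by themselves, so the sum largely restates such calls. Of the 31 members tested, 17 did not pass unstimulated and 16 did not with NE. The ratio of NE to unstimulated was 0.964 in vector and 1.00 in tSema4B, so the sum moved little with NE while single members went in both directions.

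**Figure D2:**
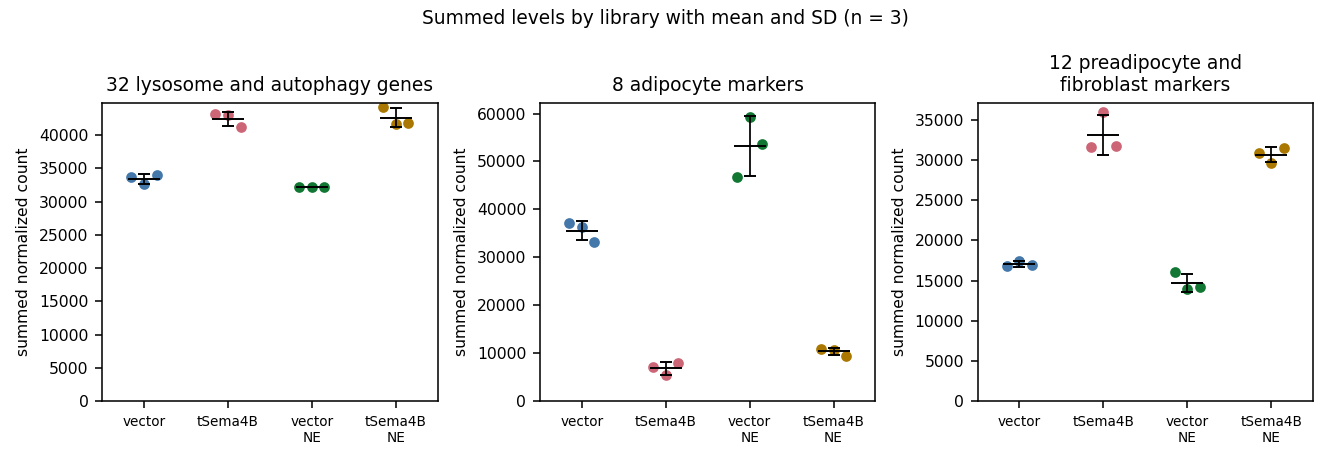
Summed normalized counts per library of the 32 lysosome and autophagy genes, of 8 adipocyte markers and of 12 preadipocyte and fibroblast markers, in the 4 groups (points are libraries, lines are mean and SD, n = 3). The sum of the members is 41194 to 44222 in tSema4B and 32142 to 33978 in vector libraries, adipocyte markers are lower and fibroblast markers higher in tSema4B.

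Among proteins of the lysosomal membrane, 4 of 5 were higher in unstimulated tSema4B cells, where 5.64% of all genes were. With NE 2 of 5 were higher, where 9.79% of all genes were. Lamp2, a heavily glycosylated protein that lines the lysosome and takes part in its fusion with autophagosomes (chromosome X from 38401357 to 38456454, minus strand), had 4196, 4103 and 4236 normalized counts in unstimulated vector and 6074, 6223 and 5449 in unstimulated tSema4B libraries. With NE it had 4011, 4016 and 3828 in vector and 6004, 5608 and 5505 in tSema4B. The groups did not overlap in either condition, and the response of Lamp2 to NE did not pass in either line. The log2FC of tSema4B over vector was 0.50 (SE 0.0652, adjusted p = 9.92e-06) unstimulated and 0.53 (SE 0.0652, adjusted p = 4.24e-06) with NE.

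Lamp1, its close relative and the most used marker of lysosomes (chromosome 8 from 13159161 to 13175338, plus strand), had 2764, 2737 and 2795 in unstimulated vector and 3342, 3408 and 2982 in unstimulated tSema4B libraries. With NE the values were 2348, 2411 and 2416 in vector and 3234, 2971 and 2990.1 in tSema4B. The lines were apart in both conditions, by less than for Lamp2. The log2FC was 0.23 (SE 0.0692, adjusted p = 0.0310) unstimulated and 0.36 (SE 0.0692, adjusted p = 7.37e-04) with NE. The unstimulated call was not firm. Its adjusted p was 0.101 without the filter on low values, 0.0502 in edgeR, 0.0506 in a model of the 6 libraries compared, 0.0885, 0.0951 and 0.0585 without vector replicate 1, 2 or 3, and 0.108 and 0.113 without tSema4B replicate 1 or 2. Lamp1 shares 249 exon bases with Grtp1 on the opposite strand.

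Cd63, a tetraspanin of late endosomes and lysosomes, had 1515, 1428 and 1556 in unstimulated vector and 2261, 1992 and 2117 in unstimulated tSema4B libraries, with no overlap. This was a log2FC of 0.50 (SE 0.0858, adjusted p = 2.71e-04). With NE, the vector libraries had 1663, 1799 and 1868 and the tSema4B libraries 2170.4, 1749.7 and 1827. The groups then overlapped, and the log2FC of 0.10 (95% CI -0.07 to 0.28) did not pass. The interaction was -0.40 (SE 0.121, adjusted p = 0.237), so a difference between the conditions was not shown.

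Scarb2, known as LIMP-2, which carries glucocerebrosidase to the lysosome, behaved alike. Its values were 382, 383 and 270.1 in unstimulated vector and 538, 506 and 457 in unstimulated tSema4B libraries, against 544, 442 and 471 and 549, 537 and 539 with NE. The unstimulated vector libraries were lower than all the others. Between the lines the log2FC was 0.55 (SE 0.129, adjusted p = 0.00539) unstimulated and 0.16 (95% CI -0.10 to 0.43) with NE, and the interaction was -0.39 (adjusted p = 0.475). Mcoln1, the calcium channel of the lysosomal membrane, had 209 to 266 in unstimulated vector, 175 to 231 in unstimulated tSema4B, 147 to 182 in NE-treated vector and 189 to 239 in NE-treated tSema4B libraries, and passed in neither comparison of the lines (log2FC -0.24, adjusted p = 0.355, and 0.38, adjusted p = 0.0849).

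**Figure D3:**
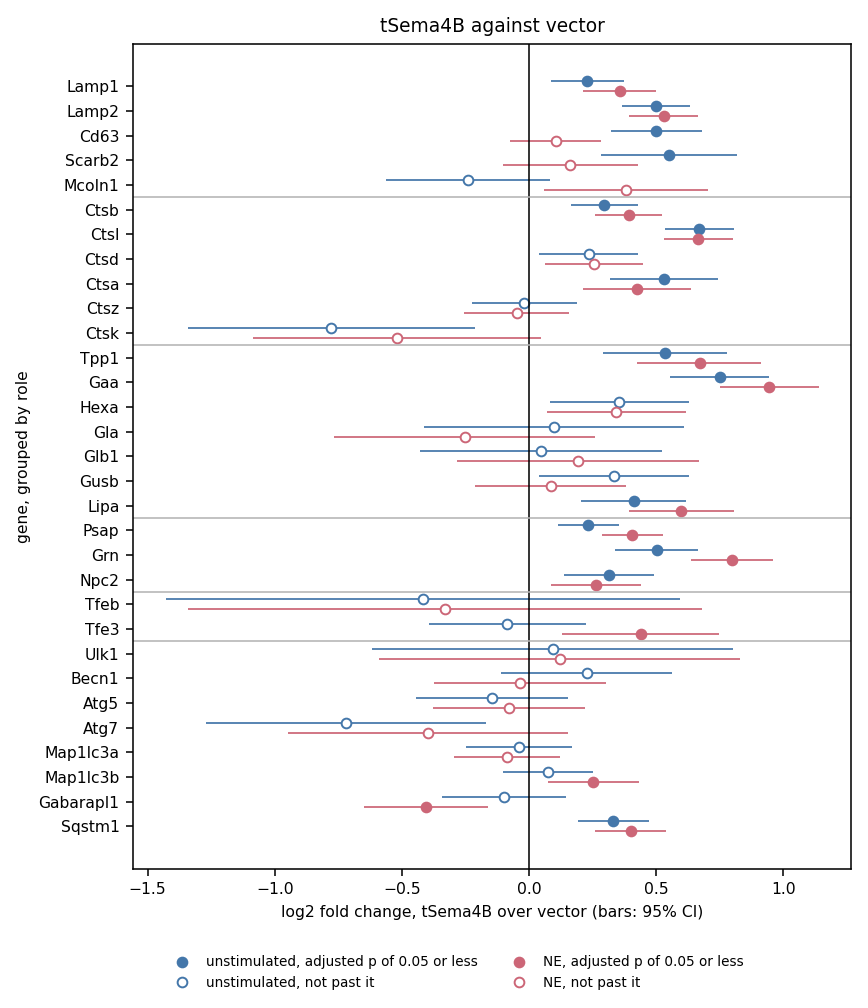
Log2FC of tSema4B over vector for the 31 tested members, in unstimulated (blue) and NE-treated (red) cells. Points are limma estimates, bars are 95% confidence intervals, and filled points have an adjusted p of 0.05 or less. The largest passing changes are those of Gaa (0.75 and 0.94), and Gabarapl1 with NE (-0.41) is the passing change below 0.

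Of the cathepsins, the main proteases of the lysosome, 3 of the 6 tested were higher in tSema4B in both conditions. Of all genes tested, 3.76% were. Ctsl, a cysteine protease (chromosome 13 from 64359337 to 64370890, minus strand), had 2345, 2368 and 2531 normalized counts in unstimulated vector and 3873, 3740.4 and 3900.5 in unstimulated tSema4B libraries. With NE the vector libraries had 3089, 3185 and 3212 and the tSema4B libraries 5358, 4829 and 4877. The 4 groups were fully separate. The log2FC of tSema4B over vector was the same in both conditions, 0.67 (SE 0.0657, adjusted p = 1.69e-07) unstimulated and 0.67 (SE 0.0657, adjusted p = 2.03e-07) with NE.

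Ctsb, the most abundant cathepsin here (chromosome 14 from 63122462 to 63145923, plus strand), had 3953, 3601 and 3788 in unstimulated vector and 4647, 4897 and 4378 in unstimulated tSema4B libraries. NE-treated libraries had 4745, 4611 and 4659 in vector and 6195, 6196 and 6000.1 in tSema4B. NE-treated vector libraries thus reached the level of unstimulated tSema4B libraries, and NE-treated tSema4B libraries lay above all others. The log2FC of the lines was 0.30 (SE 0.0631, adjusted p = 0.00251) unstimulated and 0.39 (SE 0.0631, adjusted p = 1.07e-04) with NE. Strand was not given for the counting. Ctsl shares 1742 exon bases with Gm47123 and Ctsb 774 with Fdft1, both on the opposite strand, so that reads in these stretches cannot be told apart. Ctsl also shares 395 with Gm49230 on its own strand, where strand could not separate reads. Among the other members, Ctsd shares 808 exon bases with Gm49369 and Glb1 165 with Tmppe, also on the same strand. On the opposite strand, Becn1 shares 3104 with Cntd1, Hexa 255 with Tmem202, Grn 68 with Fam171a2, Map1lc3b 58 with Zcchc14 and Ctsz 10 with Nelfcd.

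Ctsa, a carboxypeptidase that also protects β-galactosidase and neuraminidase, and whose promoter window holds the pair of TCACGTGA sites shown above, had 589.7, 494 and 611 in unstimulated vector and 810.4, 818 and 810.5 in unstimulated tSema4B libraries. In the presence of NE it had 535, 495 and 507 in vector and 762, 647 and 658 in tSema4B. The lines did not overlap in either condition. For Ctsa the log2FC was 0.53 (SE 0.102, adjusted p = 8.83e-04) unstimulated and 0.42 (SE 0.102, adjusted p = 0.00470) with NE. Ctsa shares 495 exon bases with Pltp and 324 with Neurl2.

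The other cathepsins did not pass in any comparison. The aspartic protease Ctsd had 613 to 711 in unstimulated vector, 783 to 804 in unstimulated tSema4B, 567 to 634 in NE-treated vector and 676 to 742 in NE-treated tSema4B libraries. The lines did not overlap in either condition, but the log2FC values of 0.23 (95% CI 0.04 to 0.43, adjusted p = 0.106) and 0.26 (95% CI 0.06 to 0.45, adjusted p = 0.0546) missed the threshold, and the second passed under 5 of the 17 alternatives that were judged by the adjusted p alone. Ctsz was at 525 to 626 in all libraries, with log2FC values of -0.02 (95% CI -0.23 to 0.19) and -0.05 (95% CI -0.26 to 0.16). Ctsk, a collagen-degrading protease, had the lowest level of the 6 cathepsins tested and, in unstimulated cells, the lowest log2FC of the 31 members tested, from 85.8, 63.1 and 100.2 in unstimulated vector to 40.5, 51.0 and 50.7 in unstimulated tSema4B libraries (log2FC -0.78, SE 0.272, adjusted p = 0.0630). It passed in DESeq2 (0.0484) and without vector replicate 2 (0.0498).

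Of 7 other hydrolases, Gaa, Tpp1 and Lipa were higher in tSema4B in both conditions, where 3.76% of all genes were. Gaa, the acid α-glucosidase that degrades glycogen in the lysosome (chromosome 11 from 119267887 to 119285454, plus strand), had the largest passing change of all members. It had 532, 555 and 576 normalized counts in unstimulated vector and 958, 953 and 887 in unstimulated tSema4B libraries. After NE the values were 394, 411 and 369 in vector and 712, 794 and 754 in tSema4B. Every group was separate from every other. The mean was 1.68-fold higher in tSema4B unstimulated (log2FC 0.75, SE 0.0934, adjusted p = 5.45e-06) and 1.93-fold higher with NE (0.94, SE 0.0934, adjusted p = 2.12e-07), and the 95% interval of the latter, 0.75 to 1.14, included the log2FC of 1.

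Tpp1, a tripeptidyl peptidase, had 418, 366 and 463 in unstimulated vector and 649.5, 532 and 626 in unstimulated tSema4B libraries. With NE it had 319.8, 314 and 382 in vector and 525, 542 and 544 in tSema4B. The lines were separate, with log2FC values of 0.54 (SE 0.117, adjusted p = 0.00308) and 0.67 (SE 0.117, adjusted p = 2.74e-04). Lipa, the acid lipase that hydrolyses cholesteryl esters and triglycerides, had 595, 588 and 622 in unstimulated vector and 756, 908 and 746 in unstimulated tSema4B libraries, and with NE 558, 568 and 613 in vector and 918, 802 and 918 in tSema4B. It too did not overlap between the lines, and the log2FC was 0.41 (SE 0.0989, adjusted p = 0.00671) unstimulated and 0.60 (SE 0.0989, adjusted p = 1.42e-04) with NE.

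The remaining hydrolases, which cut sugars from glycolipids and glycans, did not pass in any comparison. Hexa had 421 to 549 in unstimulated vector and 606 to 686 in unstimulated tSema4B libraries (log2FC 0.35, 95% CI 0.08 to 0.63, adjusted p = 0.0803), and 376 to 402 and 403 to 607 with NE (0.34, 95% CI 0.07 to 0.62, adjusted p = 0.0675). With NE it passed under 7 of 17 alternatives. Gusb had 171 to 192 and 220.4 to 239.8 unstimulated (0.33, 95% CI 0.04 to 0.63, adjusted p = 0.133), and 0.08 (95% CI -0.21 to 0.38) with NE. Gla and Glb1, at 44.9 to 105 and 67.6 to 137 over all libraries, had wide intervals (-0.41 to 0.61 and -0.43 to 0.52 unstimulated), so that moderate changes in either direction were not detectable at this depth.

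All 3 cofactors and transfer proteins were higher in tSema4B in both conditions, where 3.76% of all genes were. Grn, the precursor of the granulins, which is needed for hydrolase activity in the lysosome (chromosome 11 from 102430315 to 102437048, plus strand), had 1313, 1259.5 and 1349 normalized counts in unstimulated vector and 1838, 1982 and 1737 in unstimulated tSema4B libraries. NE-treated libraries had 965, 1021 and 939.5 in vector and 1674, 1647 and 1765 in tSema4B. The distance between the mean levels was larger with NE. For Grn the log2FC was 0.50 (SE 0.0780, adjusted p = 8.85e-05) unstimulated and 0.80 (SE 0.0780, adjusted p = 1.91e-07) with NE, and the interaction of 0.30 (SE 0.110, adjusted p = 0.337) did not pass.

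Psap, the precursor of the saposins that present sphingolipids to hydrolases (chromosome 10 from 60277627 to 60302597, plus strand), had 6184, 5933 and 5796 in unstimulated vector and 7028, 7151 and 6856 in unstimulated tSema4B libraries. In the presence of NE it had 4949.9, 4834 and 4728 in vector and 6528, 6325 and 6367 in tSema4B. The log2FC was 0.23 (SE 0.0578, adjusted p = 0.00864) unstimulated and 0.41 (SE 0.0578, adjusted p = 2.49e-05) with NE, and the first did not pass without the filter (0.0677). Npc2, which binds cholesterol released in the lysosome, had 1379, 1394 and 1417 and 1890.2, 1613 and 1718 in unstimulated vector and tSema4B libraries, and 1271, 1248 and 1211 and 1685, 1367 and 1443 with NE. It was higher in tSema4B by 0.31 (SE 0.0856, adjusted p = 0.0159) and by 0.26 (SE 0.0856, adjusted p = 0.0315). Unstimulated, its adjusted p was 0.0507 after quantile normalization, 0.0617 and 0.0522 without vector replicate 1 or 2 and 0.0930 without tSema4B replicate 1. With NE it was 0.0781 without the filter, 0.0573, 0.0717 and 0.105 without vector replicate 1, 2 or 3 and 0.165 without tSema4B replicate 1.

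**Figure D4:**
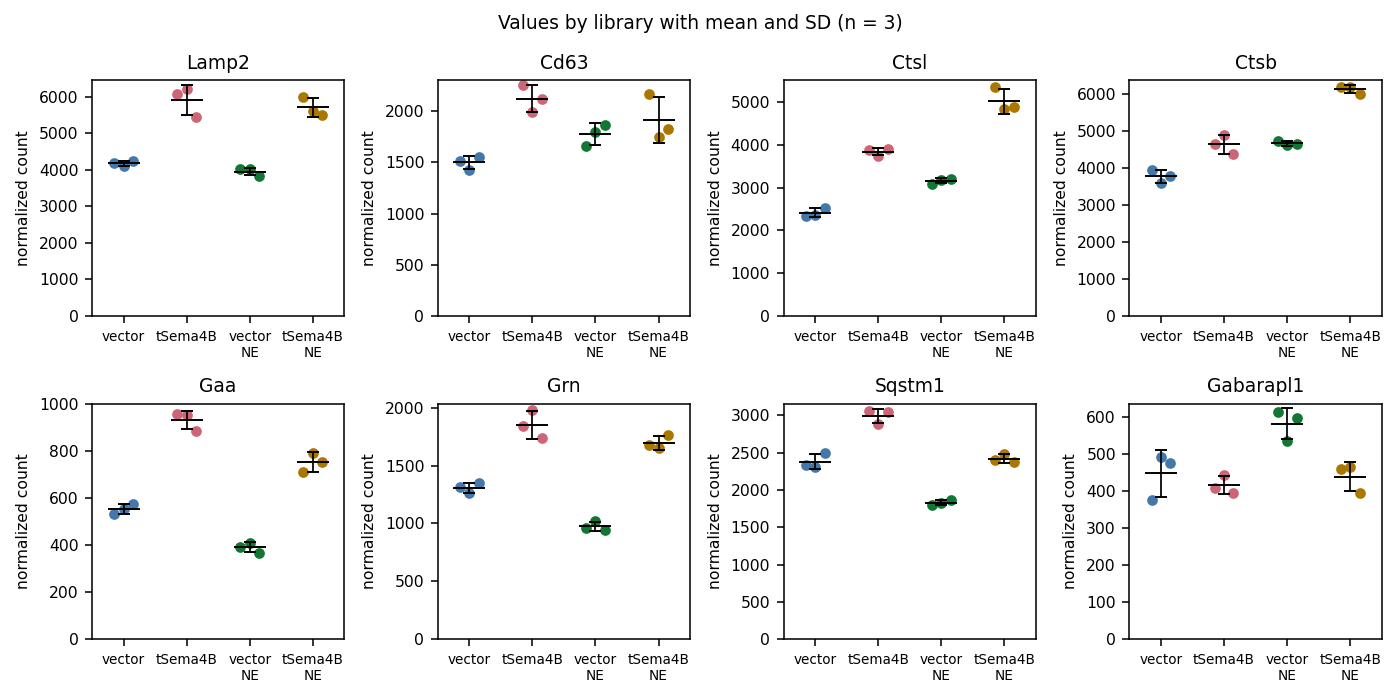
Normalized counts of Lamp2, Cd63, Ctsl, Ctsb, Gaa, Grn, Sqstm1 and Gabarapl1 per library in the 4 groups, with mean and SD (n = 3) and axes starting at 0. For Gaa the means are 554 and 933 in unstimulated and 391 and 754 in NE-treated vector and tSema4B cells, and for Gabarapl1 NE-treated vector cells (mean 582) stand above the other 3 groups.

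Of the transcription factors known to act on these genes, Tfe3 passed in NE-treated cells and Tfeb in no comparison. Tfeb had 15.2, 16.8 and 28.3 normalized counts in unstimulated vector, 17.9, 7.73 and 20.5 in unstimulated tSema4B, 16.8, 17.2 and 15.1 in NE-treated vector and 6.43, 17.0 and 18.5 in NE-treated tSema4B libraries. These values overlap throughout, and the intervals of its log2FC were wide (-1.43 to 0.59 unstimulated, -1.34 to 0.68 with NE). Tfe3 was more abundant, with 265, 277 and 259 in unstimulated vector and 241, 232 and 285 in unstimulated tSema4B libraries, and 161, 173 and 241 and 255, 269.8 and 243 with NE. Its unstimulated groups overlapped (log2FC -0.09, 95% CI -0.39 to 0.22). With NE it was higher in tSema4B (0.44, SE 0.149, adjusted p = 0.0391), a call with adjusted p of 0.0660 without the filter, 0.0627 in the model of 6 libraries, 0.191 and 0.142 without vector replicate 1 or 2 and 0.0703, 0.108 and 0.0539 without tSema4B replicate 1, 2 or 3. Levels of mRNA do not report where these factors lie in the cell.

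In the autophagy machinery, Sqstm1 was the 1 of 8 members that was higher in tSema4B in both conditions, where 3.76% of all genes were. Sqstm1, or p62, is a receptor that links ubiquitinated cargo to the autophagosome and is itself degraded with it (chromosome 11 from 50199366 to 50210827, minus strand). It had 2340.2, 2307 and 2496 normalized counts in unstimulated vector and 3059, 2885 and 3045 in unstimulated tSema4B libraries. After NE the values were 1799, 1826 and 1871 in vector and 2397, 2487 and 2370.4 in tSema4B. The lines did not overlap in either condition, and NE-treated tSema4B libraries were at the level of unstimulated vector libraries. Between the lines the log2FC was 0.33 (SE 0.0674, adjusted p = 0.00156) unstimulated and 0.40 (SE 0.0674, adjusted p = 1.74e-04) with NE. Sqstm1 shares 580 exon bases with Mrnip on the opposite strand.

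Of the ubiquitin-like proteins that are coupled to the autophagosome membrane, none passed in unstimulated cells. Gabarapl1 (chromosome 6 from 129533160 to 129542346, plus strand) had 376, 493 and 477 in unstimulated vector and 410.0, 444 and 396 in unstimulated tSema4B libraries. With NE it had 614, 535 and 598 in vector and 459, 465 and 395 in tSema4B. The NE-treated vector libraries were higher than the other 9. The log2FC of tSema4B over vector with NE was -0.41 (SE 0.118, adjusted p = 0.0167), and the adjusted p was 0.0638 with libraries scaled to the same total, 0.0729 and 0.0650 without vector replicate 1 or 3 and 0.0820 without tSema4B replicate 3. Gabarapl1 shares 570 exon bases with 1700101I11Rik.

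Map1lc3b, the LC3 protein most used to follow autophagy, had 931, 880.3 and 1042 and 940.4, 1019 and 1040.5 in unstimulated vector and tSema4B libraries, and 927, 895 and 923 and 1113, 1098 and 1059.7 with NE. It was higher in NE-treated tSema4B cells by 0.25 (SE 0.0856, adjusted p = 0.0392). This call was lost without the filter (0.0785) and when any of the 6 libraries was left out, with 0.0777, 0.112 and 0.0885 without vector replicate 1, 2 or 3 and 0.0898, 0.0871 and 0.0564 without tSema4B replicate 1, 2 or 3. Its relative Map1lc3a was at 526 to 689 in all libraries, with log2FC values of -0.04 (95% CI -0.25 to 0.17) and -0.09 (95% CI -0.30 to 0.12).

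The members that start autophagy or couple these proteins did not pass in any comparison. Other autophagy genes, some of which passed, are given in a list below. Ulk1, the kinase that starts the process, had 31.5 to 111 over all libraries, Becn1, of the lipid kinase complex, 155 to 243, and Atg5, part of the enzyme that couples LC3 to lipid, 160.2 to 241. The 95% intervals of their unstimulated log2FC values were -0.62 to 0.80, -0.11 to 0.56 and -0.45 to 0.15. Atg7, the E1-like enzyme of the coupling, had 97.7, 98.4 and 62.1 in unstimulated vector and 51.2, 46.4 and 54.8 in unstimulated tSema4B libraries. These groups did not overlap, and the log2FC of -0.72 (SE 0.265, adjusted p = 0.0782) passed only without vector replicate 3 (-0.94, adjusted p = 0.0374) among its 17 alternatives. The 4 TCACGTGA genes were spread over these outcomes. Ctsa was higher in tSema4B in both conditions, and Ctsd, Gla and Mcoln1 did not pass in the comparison of the lines.

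The next question was how NE changed the members in each line. The NE comparisons use the same libraries as the comparisons of the lines above, so values are given side by side. In vector cells, 4 of 31 members were higher with NE, where 6.82% of all genes were, and 6 were lower, where 4.78% of all genes were. In tSema4B cells, 2 were higher and 1 was lower, where 3.68% and 2.58% of all genes were. Without vector NE replicate 1 the count in vector cells went from 10 to 6 (2 higher, 4 lower), and without tSema4B NE replicate 1 that in tSema4B cells went from 3 to 5 (2 higher, 3 lower). None passed a log2FC of 1 in either line, as 2.63% and 2.07% of all genes did. The median log2FC of the members was -0.13 in vector and -0.08 in tSema4B cells, that of all genes -0.02 and -0.0048.

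Ctsb and Ctsl rose with NE in both lines and Sqstm1 fell in both, in each case with no overlap between the groups, as the values per library above show. For Ctsb the means went from 3781 ± 176 to 4672 ± 67.8 in vector (log2FC 0.31, SE 0.0631, adjusted p = 0.00265) and from 4641 ± 259.6 to 6130.3 ± 113 in tSema4B (0.40, SE 0.0631, adjusted p = 2.76e-04). For Ctsl they went from 2414 ± 102 to 3162 ± 64.5 in vector (0.39, SE 0.0657, adjusted p = 3.96e-04) and from 3838 ± 85.7 to 5021 ± 293 in tSema4B (0.39, SE 0.0657, adjusted p = 6.05e-04). These proteases were thus raised by NE and higher in tSema4B. Sqstm1 had the opposite response to NE, from 2381 ± 101 to 1832 ± 36.0 in vector (-0.38, SE 0.0674, adjusted p = 7.25e-04) and from 2996 ± 96.8 to 2418 ± 61.3 in tSema4B (-0.31, SE 0.0674, adjusted p = 0.00611). All 6 calls held under each of their 17 alternatives.

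**Figure D5:**
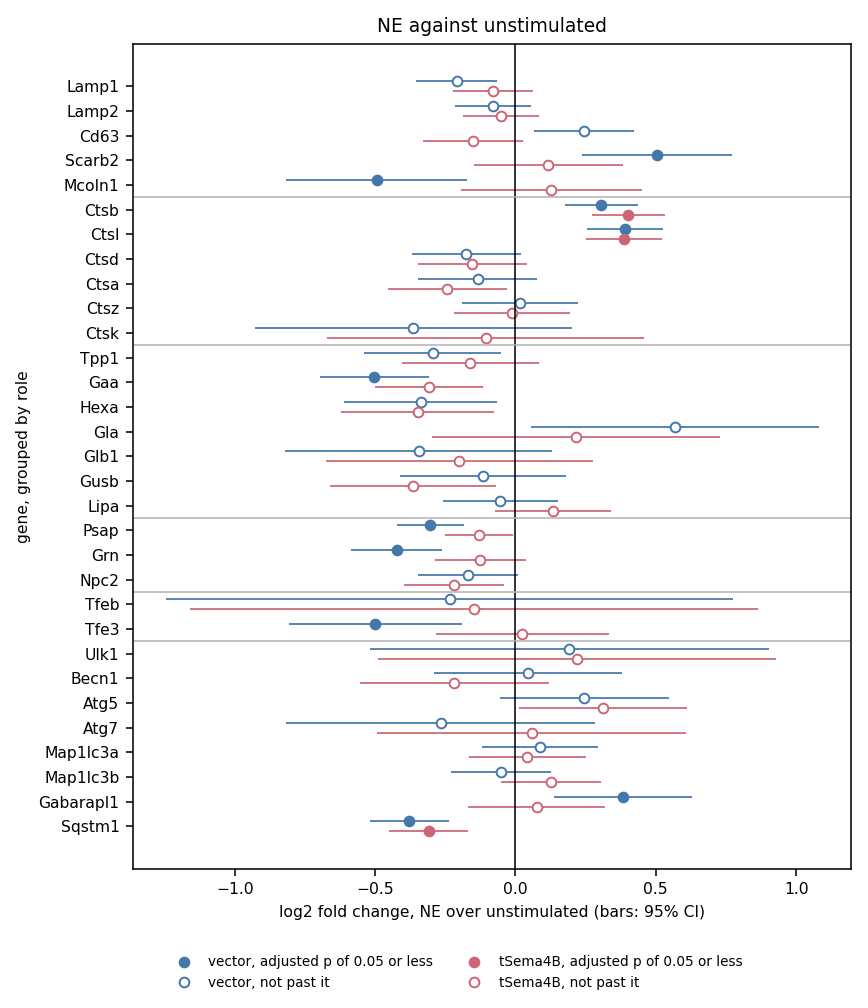
Log2FC of NE over unstimulated for the 31 tested members, in vector (blue) and tSema4B (red) cells. Points are limma estimates, bars are 95% confidence intervals, and filled points have an adjusted p of 0.05 or less. Ctsb and Ctsl (0.31 to 0.40) and Sqstm1 (-0.38 and -0.31) pass in both lines, and Gaa, Grn and Psap (-0.50, -0.42 and -0.30) pass in vector cells.

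Other members passed with NE in vector cells alone. The enzyme Gaa fell from 554 ± 22.0 to 391 ± 21.5 (log2FC -0.50, SE 0.0934, adjusted p = 0.00108), Grn from 1307 ± 45.2 to 975 ± 41.8 (-0.42, SE 0.0780, adjusted p = 0.00103) and Psap from 5971 ± 197 to 4837 ± 111 (-0.30, SE 0.0578, adjusted p = 0.00137), and these calls held under all 17 alternatives. In tSema4B cells Gaa had -0.31 (95% CI -0.50 to -0.11, adjusted p = 0.0526), Grn -0.13 (95% CI -0.29 to 0.04) and Psap -0.13 (95% CI -0.25 to -0.01, adjusted p = 0.204). The response of Gaa in tSema4B cells passed under 4 of its 17 alternatives, and no interaction passed (adjusted p = 0.664, 0.337 and 0.475), so the response was not shown to differ between the lines.

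Scarb2, Gabarapl1, Mcoln1 and Tfe3 also passed with NE in vector cells, less firmly. Scarb2 rose from 345 ± 65.1 to 486 ± 52.7 (0.50, SE 0.129, adjusted p = 0.0123), with 0.0950 without unstimulated vector replicate 3 and 0.0745 without NE replicate 1. Gabarapl1 rose from 448 ± 63.5 to 582 ± 42.0 (0.38, SE 0.118, adjusted p = 0.0369), with 0.0712 without the filter, 0.0690, 0.0650 and 0.0980 under the 3 other scalings, 0.226 without unstimulated replicate 1 and 0.137 and 0.131 without NE replicate 1 or 3. Mcoln1 fell from 238 ± 28.5 to 168 ± 19.1 (-0.49, SE 0.155, adjusted p = 0.0410), with values of 266, 238 and 209 against 177, 182 and 147. Its adjusted p was 0.0695 without the filter, 0.179 and 0.106 without unstimulated replicate 1 or 2 and 0.0713, 0.0603 and 0.202 without NE replicate 1, 2 or 3. Tfe3 fell from 267 ± 8.87 to 192 ± 43.2 (-0.50, SE 0.149, adjusted p = 0.0309), with 0.0553 without the filter, 0.0826, 0.101 and 0.0666 without unstimulated replicate 1, 2 or 3 and 0.168 and 0.127 without NE replicate 1 or 2. In tSema4B cells their log2FC values were 0.12 (95% CI -0.15 to 0.38), 0.08 (95% CI -0.17 to 0.32), 0.13 (95% CI -0.19 to 0.45) and 0.02 (95% CI -0.28 to 0.33), and their interactions did not pass (adjusted p = 0.475, 0.552, 0.318 and 0.386). Lamp1, from 2765 ± 29.0 to 2392 ± 37.7 in vector cells, just missed (-0.21, SE 0.0692, adjusted p = 0.0530) and passed under 6 of 17 alternatives.

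Other genes of the pathway were examined in 5 lists. Of 37 further hydrolases tested, 9 were higher and 0 lower in unstimulated tSema4B cells, where 5.64% and 7.39% of all genes were, and 10 were higher and 0 lower with NE, where 9.79% and 11.2% of all genes were. Their median log2FC was 0.12 and 0.21. Dnase2a, which degrades DNA in the lysosome, led the unstimulated comparison with 81.0 ± 12.8 in vector and 139 ± 20.9 in tSema4B (log2FC 0.77, adjusted p = 0.0104, and 0.0541 without vector replicate 3). In response to NE, 0 of the 37 rose and 4 fell in vector cells, where 6.82% and 4.78% of all genes did, led by Ppt1, a thioesterase, from 338 ± 30.0 to 213 ± 12.6 (-0.66, adjusted p = 0.00107). In tSema4B cells 0 rose and 0 fell, against 3.68% and 2.58% of all genes.

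Of 17 further membrane proteins and sorting receptors tested, 2 were higher and 1 lower in unstimulated tSema4B cells, against 5.64% and 7.39% of all genes, and 1 was higher and 3 were lower with NE, against 9.79% and 11.2%. Sort1, or sortilin, which sorts hydrolases and is also part of adipocyte storage vesicles, had 154 ± 25.2 in vector and 50.6 ± 1.73 in tSema4B unstimulated (-1.57, SE 0.329, adjusted p = 0.00203). With NE it was 102 ± 44.0 and 49.9 ± 33.0 (-1.11, adjusted p = 0.0183), with 0.138 without vector replicate 2 and 0.0913 and 0.0929 without tSema4B replicate 2 or 3. Laptm4b was higher in tSema4B in both, by 0.49 (adjusted p = 0.0187) and 0.39 (adjusted p = 0.0447). Its adjusted p was 0.0844 and 0.0972 without vector replicate 1 or 2 and 0.0563 without tSema4B replicate 1 unstimulated, and with NE 0.109, 0.136 and 0.0677 without vector replicate 1, 2 or 3 and 0.0983 and 0.190 without tSema4B replicate 2 or 3, 0.0730 without the filter and 0.0607 in the model of 6 libraries. M6pr, the mannose 6-phosphate receptor, was the 1 gene of the list that rose with NE in vector cells, where 6.82% of all genes did (0.44, adjusted p = 0.0205), with 0.0553 and 0.0800 without unstimulated replicate 2 or 3 and 0.121 without NE replicate 1 or 3 and 0.0505 after quantile normalization, and 0 fell, against 4.78% of all genes. In tSema4B cells none of the 17 passed, where 3.68% of all genes rose and 2.58% fell.

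Of 16 subunits tested of the V-ATPase, the proton pump that acidifies the lysosome, 1 was higher and 0 lower in unstimulated tSema4B cells, a share near the 5.64% of all genes that were higher. With NE 1 was higher and 4 were lower, against 9.79% and 11.2% of all genes. Atp6ap1, an accessory subunit, was higher in both, from 946 ± 40.2 to 1256 ± 138 (0.40, adjusted p = 0.00593) and from 998 ± 49.6 to 1225 ± 130 (0.29, adjusted p = 0.0341). The latter lost its call without vector replicate 1, 2 or 3 (0.130, 0.0661 and 0.0563) and without tSema4B replicate 2 or 3 (0.106 and 0.141), and without the filter (0.0789). Atp6v0b had 592 ± 40.9 in NE-treated vector and 379 ± 51.4 in NE-treated tSema4B cells (-0.65, adjusted p = 0.00136). In vector cells 1 subunit rose with NE and 3 fell, against 6.82% and 4.78% of all genes. Atp6v0b rose from 416 ± 50.6 to 592 ± 40.9 (0.51, adjusted p = 0.0148, with 0.0872 and 0.0558 without unstimulated replicate 1 or 2 and 0.0848 without NE replicate 3), and Atp6v1a fell from 790.1 ± 94.4 to 496 ± 46.4 (-0.67, adjusted p = 2.49e-04). In tSema4B cells 0 rose and 2 fell, against 3.68% and 2.58%. Atp6v0a1 fell by 0.67 on the log2 scale (adjusted p = 0.0390), with 0.0797, 0.133 and 0.0501 without unstimulated replicate 1, 2 or 3 and 0.180 and 0.0639 without NE replicate 1 or 2, and lost the call under 9 of 17 alternatives.

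In the list of other autophagy genes, 39 were tested. Of these, 1 was higher and 5 were lower in unstimulated tSema4B cells, against 5.64% and 7.39% of all genes, and 5 were higher and 2 lower with NE, against 9.79% and 11.2%. Calcoco1, an autophagy receptor, led upward in unstimulated cells (0.36, adjusted p = 0.0420) and Nrbf2, of the lipid kinase complex, downward (-0.83, adjusted p = 0.0454). Leaving out vector replicate 1 or 3 or tSema4B replicate 1, 2 or 3 gave Calcoco1 an adjusted p of 0.142, 0.162, 0.0634, 0.127 and 0.0678, and leaving out vector replicate 1, 2 or 3 or tSema4B replicate 1 gave Nrbf2 0.206, 0.0893, 0.0502 and 0.192. Either call was lost under 8 of 17 alternatives. With NE, Tecpr1 was higher in tSema4B (56.0 ± 7.47 and 102 ± 22.7, log2FC 0.84, adjusted p = 0.00691) and Atg3, the E2-like enzyme of LC3 coupling, was lower (398 ± 19.5 and 266 ± 34.6, -0.58, adjusted p = 0.00307). In response to NE, 0 rose and 2 fell in vector cells, against 6.82% and 4.78% of all genes, led by Tecpr1 (-0.71, adjusted p = 0.0310), with 0.0906 and 0.110 without unstimulated replicate 2 or 3 and 0.0540, 0.140 and 0.0652 without NE replicate 1, 2 or 3. In tSema4B cells, where 3.68% of all genes rose and 2.58% fell, 0 of the list rose and 1, Rb1cc1, fell (-0.44, adjusted p = 0.0452), with 0.0851, 0.0775 and 0.105 without unstimulated replicate 1, 2 or 3 and 0.108 and 0.107 without NE replicate 1 or 2, and the call was lost under 10 of 17 alternatives.

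Genes of nutrient control at the lysosome include the Rag GTPases and the Ragulator and GATOR complexes that govern mTORC1. Of 21 tested, 1 was higher and 0 lower in unstimulated tSema4B cells, where 5.64% of all genes were higher and 7.39% lower, and 3 were higher and 1 was lower with NE, where 9.79% and 11.2% were. Deptor, an inhibitor of mTOR, was higher unstimulated (334 ± 14.8 and 455 ± 63.8, log2FC 0.44, adjusted p = 0.0157), with 0.0641 and 0.0574 without vector replicate 1 or 2 and 0.0899 and 0.0539 without tSema4B replicate 1 or 2. Depdc5, of GATOR1, was higher with NE (0.58, adjusted p = 0.0267), with 0.162 and 0.0574 without vector replicate 2 or 3 and 0.132 without tSema4B replicate 2, and Rheb, which activates mTORC1, was lower (-0.41, adjusted p = 0.0126), with 0.0800 without vector replicate 3 and 0.0854 without tSema4B replicate 2 and 0.0530 with libraries scaled to the same total. Tsc2, the inhibitor of Rheb, was the 1 gene of the list that fell with NE in vector cells, where 4.78% of all genes did, from 327 ± 12.9 to 195 ± 30.1 (-0.75, SE 0.139, adjusted p = 0.00103), and 0 rose, against 6.82% of all genes. In tSema4B cells none of the 21 passed, against 3.68% of all genes higher and 2.58% lower. The interaction was not past the test for any gene of the 5 lists.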

How the data were processed

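RNAseq was analysed in 12 libraries, 3 in each of 4 groups assigned from their labels. The authors removed non-murine reads, aligned with STAR 2.7.9a to mm10 (GRCm38.p4), counted with htseq-count and divided the counts by DESeq2 size factors, so the deposited signal is a normalized read count per gene. Annotation and strand setting are not given in the sources used here. In all libraries 100% of non-zero values were whole multiples of 1 read (tolerance 0.01), and whole reads were recovered on this basis for edgeR and DESeq2.

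Values were log2-transformed (pseudocount 1), genes reaching 10 normalized counts in 3 or more libraries were kept (11998), and 1 model of the 4 groups was fitted in R 4.3.3 with limma 3.58.1 and a variance trend, with Benjamini-Hochberg adjustment. The script was tested on simulated data. Libraries of a group differed by more than counting noise (chi-square per degree of freedom 3.56 to 5.79). Members, lists and tests were chosen with earlier results of these data known. All members are named, and of each further list the passing gene with the largest log2 fold change per direction and comparison. A gene that this rule selects in 1 comparison is not reported here. Gene positions and exon overlaps are from GENCODE M21 (GRCm38) and promoters from RefSeq (GRCm38.p6).

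Alternatives were pseudocounts of 0.5 and 10, no filter or a filter at 50, 3 other scalings, edgeR 4.0.16 and DESeq2 1.42.0 on recovered reads, a model of 6 libraries, the replicate number as a block, a log2 fold change threshold of 1, and each library left out in turn.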

Additional observations from a re-analysis of the deposited data

How the results depend on the processing

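Of the 42 passing results of single members, 31 passed under each of the 17 alternatives that were judged by the adjusted p alone and 11 lost their call under at least 1, which made 58 of 714 values, and 0 reversed. A further 12 member results passed under at least 1 alternative only. The count of members past the test was 14 in unstimulated and 15 in NE-treated tSema4B against vector, and 10 in vector and 3 in tSema4B for NE, and 0 for the interaction. With the fold change threshold (log2 of 1) added, it was 0 in each of the 4 comparisons of 2 groups. Leaving out 1 library at a time gave 12 to 14, 11 to 14, 6 to 9 and 3 to 5 members and 0 for the interaction. The 6 came without vector NE replicate 1 and the 5 without tSema4B NE replicate 1, each moving the count by more than 1.5 times. With the replicate block the counts were 14, 14, 10, 3 and 0. Same-numbered libraries shared only a number (correlations of deviations -0.0470 to 0.0283 over 18 pairs, 0 over 0.1), and among the genes named the block ended the calls of Map1lc3b in NE-treated (adjusted p = 0.0508) and Nrbf2 in unstimulated tSema4B against vector (0.0600), and of Rb1cc1 (0.0592) and Atp6v0a1 (0.0517) for NE in tSema4B cells. Over the other settings the counts were 12 to 15, 12 to 17, 7 to 13, 3 to 4 and 0. Across all genes, other scalings shifted the median by 0.0936 or less (log2). Members under about 100 normalized counts, such as Tfeb, Ulk1, Gla and Atg7, had wide intervals at this depth.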
